A study of Homo sapiens with 29 samples.

Results

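Pladienolide B (PladB) was given to parental 22Rv1 cells, a human prostate cancer cell line, at 10 nM and at 100 nM for 3 h, and open chromatin was mapped by ATAC-seq, an assay that sequences the fragments a transposase releases from accessible DNA. The 2 doses were compared through the 3 peak lists of each, 6 of the 29 libraries of the series, chosen by their labels. All 6 are labelled parental in genotype, with no doxycycline (Dox) in their treatment. The 3 parental libraries treated with DMSO (0.1%, 3 h) served as the vehicle against which regions that differed between the doses were looked up. Further lookups used parental cells given 20 µM of WX-02-23 or of its stereoisomer WX-02-43 (3 libraries each). They also used 8 libraries of engineered 22Rv1 cells that express Y36C-PHF5A together with Dox-inducible WT-FOXA1 or C258A-FOXA1, given Dox with DMSO or Dox with PladB 100 nM (2 libraries per line and treatment). Nothing in the labels says whether replicates came from separate cultures, so the p-values measure the spread between these libraries, which may be technical. The engineered cells still have their own FOXA1, and the sources used here do not say whether each line is a single clone. The identity of the cells was not checked against marker genes, because the positions are of build hg19 and no annotation of that build was used here.

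Pladienolide B is a macrolide that binds SF3B1 beside PHF5A in the SF3b complex of the U2 snRNP and blocks recognition of the intron branch point, so that introns are retained and exons skipped. PHF5A forms part of the binding pocket, and the Y36C change in it is known to weaken the action of such ligands. FOXA1 is a pioneer transcription factor that opens enhancers in luminal prostate cells together with the androgen receptor. ATAC-seq does not read splicing, so the lists show which stretches of DNA were open enough to give a peak.

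Fewer open sites were called at the higher dose. The 10 nM lists held 98083, 90822 and 88818 peaks in replicates 1, 2 and 3. The 100 nM lists held 82538, 87426 and 83676 peaks. All 3 lists of 100 nM were shorter than every list of 10 nM. The difference was -8028 peaks (SE 3178) and the two-sided exact permutation test gave p = 0.1, the lowest value possible with 3 and 3 libraries (0.222 adjusted by Benjamini-Hochberg for 6 tests). Peaks covered 37.2 ± 2.3 Mb (SD, n = 3) at 10 nM and 32.5 ± 1.1 Mb (SD, n = 3) at 100 nM. Without replicate 1 of 10 nM the difference in peak number was -5273, and among peaks with an authors' fold enrichment of at least 6 it was -2434, with a p of 0.6.

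Depth moved with dose. Read totals were not given, so a relative depth was read from the deposited fold values, which rise in steps of 1 read over the background that the peak caller used. This background was 0.924, 0.843 and 1.016 reads per base in the 10 nM libraries and 0.734, 0.718 and 0.662 in the 100 nM libraries. The DMSO libraries had 0.881, 1.002 and 0.921 reads per base and 91632, 98193 and 93068 peaks. The 100 nM group was thus the shallower one without overlap. Among the peaks whose folds lay on such a step, the lowest summits held 5 or 6 reads in these 9 libraries. Depth and dose cannot be told apart in these lists. The numbers of dose-only regions and their lookups in other lists are therefore also given with the lists cut to an equal length of 82538 peaks, the length of the shortest, keeping the peaks with the lowest deposited p-values.

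**Figure D1:**
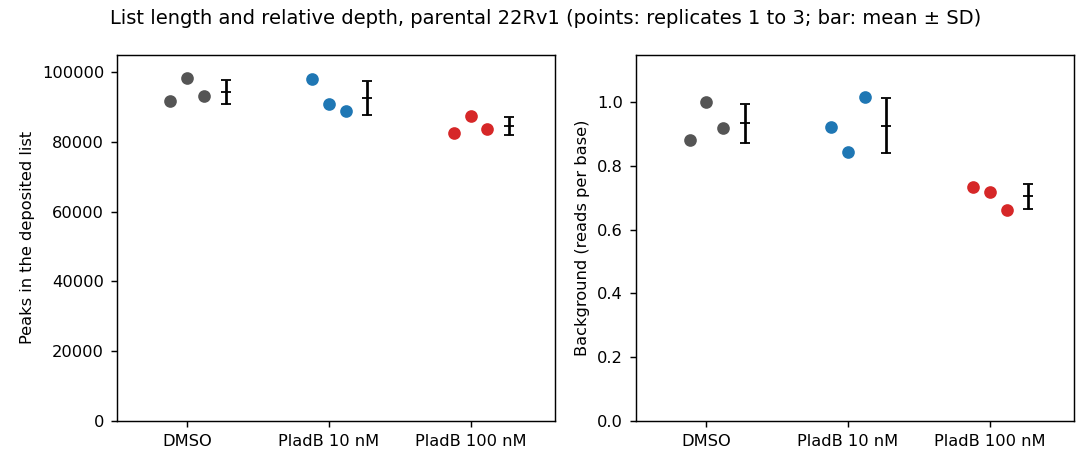
Left, number of peaks in each deposited list. Right, background level in reads per base, a relative measure of depth. Points are replicates 1 to 3 of parental cells given DMSO, PladB 10 nM or PladB 100 nM, and bars are mean ± SD; the 3 libraries of 100 nM lie below all of 10 nM in both panels.

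Most peaks were shared between the doses. Of the peaks in a 100 nM list, 95.2% to 96.9% had a peak of at least 1 list of 10 nM on them, and 80.2% to 83.6% had one of all 3. Of the peaks in a 10 nM list, 88.1% to 92.1% had a peak of at least 1 list of 100 nM and 65.4% to 72.0% of all 3. The Jaccard index divides the bases that both lists cover by the bases that at least 1 of them covers. It was 0.710 ± 0.006 among the 10 nM lists and 0.698 ± 0.006 among the 100 nM lists (SD over 3 pairs each). Between the doses it was 0.690 ± 0.012 (SD over 9 pairs). Lists of the same dose were on average more alike than lists of different doses by 0.0136, with p = 0.1 in a one-sided exact permutation test, the lowest it can give (0.222 adjusted). With lists of equal length the difference was 0.0096 (same p of 0.1), with 0.722 ± 0.006 among the 10 nM lists, 0.702 ± 0.006 among the 100 nM lists and 0.702 ± 0.009 between the doses. The 100 nM lists were then no more alike among themselves than they were to the 10 nM lists. As deposited and without replicate 1 of 10 nM the difference was 0.0059. Replicate 3 of 100 nM was the list least like those of 10 nM, at 0.668, 0.679 and 0.689.

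Merging the 6 lists gave 116058 regions, of which 59913, or 51.6%, had a peak in all 6. A region was called 10 nM-only when all 3 lists of 10 nM and no list of 100 nM held a peak in it, and 100 nM-only in the reverse case. There were 1192 regions of the 10 nM-only kind, 1.03% of all merged regions. The 100 nM-only kind numbered 136, or 0.117%. At equal list length the counts drew together, to 536 of 106204 regions (0.505%) and 334 (0.314%). Of the 1192 regions, 451 were 10 nM-only under both treatments of the lists, which is 37.8% of the deposited and 84.1% of the equal-length set. For 100 nM-only regions the 104 in common were 76.5% of the deposited and 31.1% of the equal-length set.

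Regions just short of these definitions were more numerous than those that met them. As deposited, 4017 regions had a peak in 2 lists of 10 nM and none of 100 nM, and 2998 had a peak in all 3 of 10 nM and 1 of 100 nM. In the other direction these counts were 1013 and 647. The definition is also sensitive to single libraries, since each list left out removes a condition. The 10 nM-only count rose to 2121, 2448 and 2050 without replicates 1, 2 and 3 of 100 nM, and to 1956, 2708 and 3036 without replicates 1, 2 and 3 of 10 nM. The 100 nM-only count rose to 575, 383 and 469, and to 500, 288 and 277, in the same order. The 10 nM-only count was the larger in each of these cases.

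**Figure D2:**
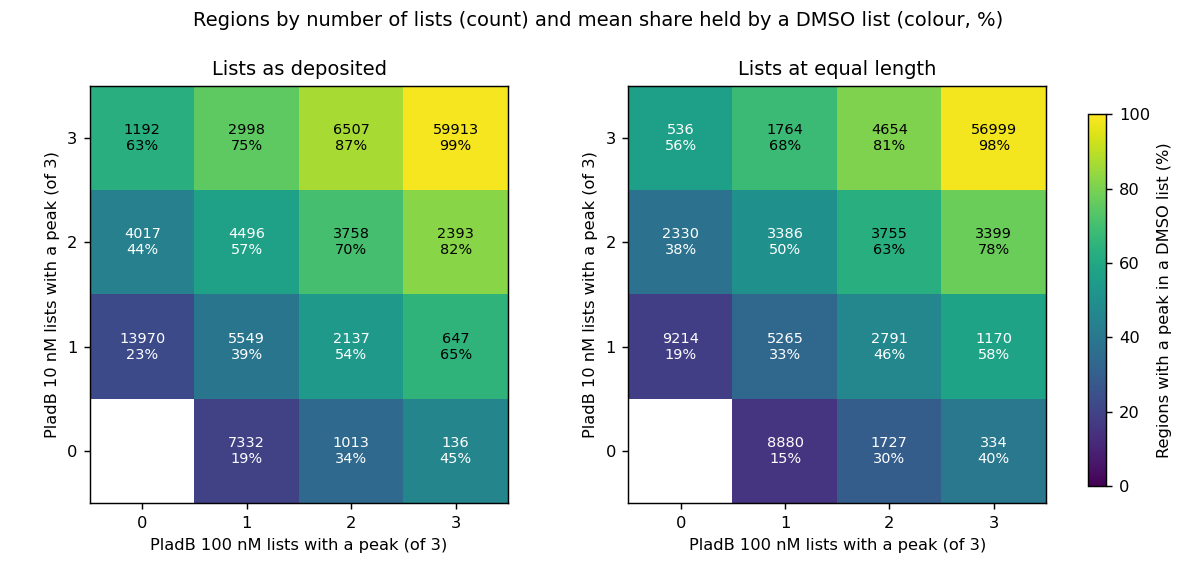
Each field counts the merged regions by how many lists of 10 nM (vertical axis) and of 100 nM (horizontal axis) held a peak, as deposited and at equal length; colour and percentage give the mean share of these regions that a parental DMSO list held. The corner fields are the dose-only regions, 1192 and 136 as deposited and 536 and 334 at equal length.

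The DMSO lists, which had no part in choosing the regions, held most of the 10 nM-only regions. Replicates 1, 2 and 3 of DMSO had a peak in 58.6%, 68.4% and 62.6% of them, a mean of 63.2% ± 4.9 (SD, n = 3). In 100 nM-only regions the same lists had a peak in 38.2%, 58.1% and 39.7%, a mean of 45.3% ± 11.1 (SD, n = 3). Each DMSO list thus held a larger share of the 10 nM-only than of the 100 nM-only regions. This order turned when 1 list of 10 nM was left out. Leaving out a list of either dose makes the 2 definitions unequal in the lists they ask for. Without replicate 1, 2 or 3 of 10 nM the mean shares were 56.0%, 51.6% and 52.0% of the 10 nM-only regions. For 100 nM-only regions they were 60.8%, 55.4% and 53.8%. Without replicate 1, 2 or 3 of 100 nM they were 69.5%, 69.5% and 66.9% against 35.2%, 39.2% and 38.5%. With 1 list of the holding dose allowed to lack a peak, for both kinds alike, they were 48.1% and 35.4%. Over all merged regions the share was 73.7% ± 2.3 (SD, n = 3). That set includes the regions held by every parental PladB list, of which DMSO lists held a mean of 98.8%, so it is no matched base. Among regions held by 3 parental PladB lists, the mean share was 57.2% ± 6.6 with 2 lists of 10 nM and 1 of 100 nM. It was 54.2% ± 6.8 with 1 list of 10 nM and 2 of 100 nM (SD, n = 3 each). The mean for 10 nM-only regions lay above both of these and that for 100 nM-only regions below both. With all lists at equal length the 10 nM-only regions again had the larger share. The DMSO shares were then 52.1%, 61.8% and 55.2% for 10 nM-only and 39.2%, 39.8% and 41.0% for 100 nM-only regions, against 71.8% ± 0.4 (SD, n = 3) of all regions.

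Counted by region, 422 of the 1192 regions of 10 nM-only type (35.4%) had a peak in all 3 DMSO lists and 153 (12.8%) in none, while 376 had one in 2 lists and 241 in 1. Over all merged regions 62.2% had a peak in all 3 DMSO lists and 14.9% in none. Of the 136 regions of 100 nM-only type, 23 (16.9%) had a peak in all 3 DMSO lists and 34 (25%) in none, with 37 and 42 in between. In lists of equal length the 10 nM-only regions split into 142 (26.5%) held by all DMSO lists and 84 (15.7%) held by none. The 100 nM-only regions split into 44 (13.2%) and 110 (32.9%), where all regions gave 60.4% and 16.8%. Regions held by vehicle and the low dose and missing at the high dose were thus the largest of these 4 classes under both treatments of the lists. This turned when 1 list of the holding dose was allowed to lack a peak. Then 1089 of the 10 nM-only regions were held by all DMSO lists and 1252 by none. Leaving out 1 of the 9 lists took the 10 nM-only regions held by all DMSO lists to at most 1065 (without replicate 2 of 100 nM) and those held by none to at most 639 (without replicate 3 of 10 nM). The 100 nM-only regions went to at most 163 held by all (without replicate 1 of 10 nM) and 215 held by none (without replicate 1 of 100 nM).

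**Figure D3:**
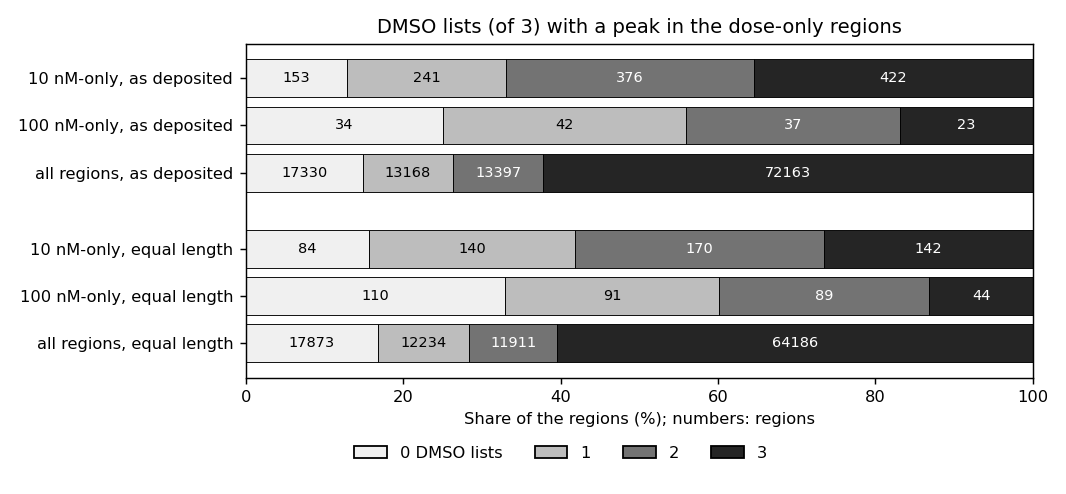
Share of the regions (horizontal axis, percent) with a peak in 0, 1, 2 or 3 parental DMSO lists, with region numbers in the bars, for 10 nM-only, 100 nM-only and all merged regions. In both the deposited and the equal-length lists the part held by 3 DMSO lists is larger, and the part held by 0 smaller, in 10 nM-only than in 100 nM-only regions.

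The order DMSO, 10 nM, 100 nM was also followed through regions fixed by 2 of the 3 groups. Of 64658 regions held by all DMSO and all 10 nM lists, 58077 (89.8%) were held by all 3 lists of 100 nM, 4607 by 2, 1552 by 1 and 422 (0.653%) by none. Of 59789 regions held by all DMSO and all 100 nM lists, 97.1% were held by all 3 of 10 nM and 23 (0.0385%) by none. At equal length the shares held by none were 0.245% and 0.0777%. Regions absent from DMSO were fewer and less often held at both doses. They were not matched in peak strength to those held by DMSO, so this is not read as an effect of dose. Of 494 regions held by all 10 nM and no DMSO lists, 61 (12.3%) were held by all 3 of 100 nM and 153 (31.0%) by none. Of 219 regions held by all 100 nM and no DMSO lists, those 61 regions were 27.9% and the 34 held by no list of 10 nM were 15.5%. At equal length the groups without a DMSO peak numbered 522 and 517, and 117 regions were common to both.

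Regions that differed between the doses ranked low in their own lists, and a definition by missing peaks favours weak ones. The regions held by all 3 lists of a dose, set beside them below, were mostly held by all 6 lists. Ranks were taken from the authors' p-values within each list and expressed as percentiles, 100 being the strongest peak. The 10 nM-only regions had a median percentile of 18.8 (quartiles 13.6 and 24.9), against 59.96 for all regions held by the 3 lists of 10 nM. The 100 nM-only regions had a median of 15.5 (quartiles 11.3 and 24.1), against 60.5 for all regions held by the 3 lists of 100 nM. Of the 1192 regions 3 reached a mean percentile of 50, and of the 136 regions none did. Median folds, as the authors computed them, were 5.49 for 10 nM-only and 5.46 for 100 nM-only regions. The weaker the peak, the larger was the share missing at the other dose. Among regions held by all 10 nM lists with a mean percentile of at most 10, 22.9% had no peak at 100 nM. This share was 5.99% between percentiles 20 and 30, 0.259% between 40 and 50, and no region above 60 lacked one. From 100 nM to 10 nM the corresponding shares were 5.64%, 0.537% and 0.0137%, again with no such region above 60. The percentiles are of the full lists, which differ in length, so a class of one dose does not match the same class of the other and the shares are not compared between doses.

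**Figure D4:**
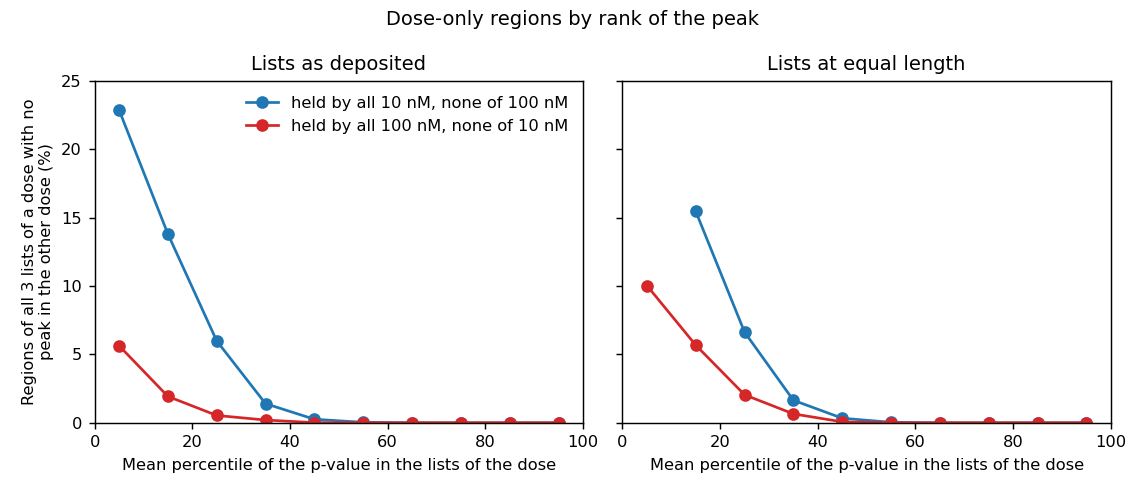
Regions held by all 3 lists of one dose, in classes 10 percentiles wide by mean percentile rank in the lists of that dose (horizontal axis), and the percentage of each class with no peak in any list of the other dose (vertical axis), for deposited and equal-length lists; classes under 20 regions are left out. The share falls from 22.9% in the weakest class of 10 nM to 0 above percentile 60. Percentiles are of the full lists in both panels, so the curves of the 2 doses are not aligned and are read within a dose.

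The regions were also narrow. Peaks in 10 nM-only regions had a median width of 202 bp and those in 100 nM-only regions of 186 bp, where the shortest peak called was 150 bp. Peaks at regions held by all 6 lists were 414 bp wide in the 10 nM lists and 369 bp in the 100 nM lists. Those peaks ranked far higher, at median percentiles of 66.2 and 62.5. Widths were not set against peaks of like rank, so the narrow width cannot be told apart from the low rank. The median distance from a 10 nM-only region to the nearest region held by all 6 lists was 11.1 kb, and from a 100 nM-only region 14.3 kb, against 13.1 kb for all 56145 regions not held by all 6. A peak of the other dose lay within 500 bp, without overlap, beside 240 (20.1%) of the 10 nM-only and 20 (14.7%) of the 100 nM-only regions. The same share over other regions is not given here, so these shares cannot be called high or low. The lists searched also differ in length, so the 2 kinds are not compared. Leaving aside chromosome Y with 256 regions, the 10 nM-only share ran from 0.561% (8 of 1425 regions on chromosome 21) to 1.58% (50 of 3159 on chromosome 13). The 100 nM-only share ran from 0.0236% (1 region on chromosome 19) to 0.281% (4 on chromosome 21). These extremes rest on few regions and moved with list length. In lists of equal length the 10 nM-only share ran from 0.373% (chromosome 9) to 0.726% (chromosome 13) and the 100 nM-only share from 0.219% (chromosome 20) to 0.536% (chromosome 21), with 10 regions (0.251%) on chromosome 19.

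The strongest regions of each class were named by a rule: those in the same class as deposited and at equal length, 4 per class, by mean percentile in the lists of the dose. All positions are of build hg19. Genes and sequences at these positions are not given, since no genome or annotation of that build was used here.

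Regions present in vehicle and at 10 nM and missing at 100 nM numbered 119 under both treatments of the lists, and the first 4 were of middle rank. The strongest lay on chromosome 3 from 195454313 to 195454877, where the deposited fold was 8.58, 9.01 and 9.02 in the 10 nM lists and 7.43, 9.35 and 9.76 in the DMSO lists. No list of 100 nM had a peak there, whereas every WX-02-23, WX-02-43 and engineered library looked up did, the 4 engineered PladB libraries included. The second, on chromosome 21 from 43385000 to 43385485, had folds of 8.03, 9.11 and 7.22 at 10 nM and 7.19, 7.42 and 8.25 in DMSO. It too was held by all WX-02-23, WX-02-43 and engineered libraries looked up. These 2 regions were the only ones of the 4 held by all 4 engineered PladB libraries.

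The third region of this class, on chromosome 11 from 100367853 to 100368330, had folds of 11.4, 9.22 and 6.45 at 10 nM and 9.04, 9.49 and 7.81 in DMSO. It had a peak in all 3 lists of WX-02-43 and in none of WX-02-23, so it was absent from both the 100 nM and the WX-02-23 lists. Of the engineered libraries, both DMSO libraries of each line held it, as did both PladB libraries of the WT-FOXA1 line and 1 of 2 of the C258A-FOXA1 line. The fourth, on chromosome 1 from 64649853 to 64650152, had folds of 8.70, 10.4 and 6.63 at 10 nM and 8.42, 5.68 and 6.15 in DMSO. There the WX-02-23 lists had folds of 12.9, 11.4 and 9.70 and the WX-02-43 lists of 6.47, 5.47 and 6.26. Both WT-FOXA1 DMSO libraries held this region and no other engineered library looked up did.

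Regions present at 10 nM and in neither DMSO nor 100 nM lists numbered 34 under both treatments of the lists. The strongest lay on chromosome 22 from 44263763 to 44264035, with folds of 11.3, 8.68 and 8.43 at 10 nM and summits within 2 bp of each other. All 3 WX-02-23 lists, 1 WX-02-43 list and all 8 engineered libraries held it, so DMSO of the engineered cells had a peak where DMSO of the parental cells did not. The second, on chromosome 5 from 72760890 to 72761285, had folds of 8.32, 6.51 and 9.43 at 10 nM. All 6 lists of WX-02-23 and WX-02-43 held it and no engineered library did. The third, on chromosome 8 from 10950009 to 10950261, had folds of 8.44, 7.28 and 5.65, and the fourth, on chromosome 2 from 198667824 to 198667989, of 4.63, 4.51 and 4.24. Both were held by all 3 WX-02-23 lists, so each of these 4 regions had a peak in every WX-02-23 list. WX-02-43 held the third in 0 and the fourth in 2 of 3 lists. As a base, WX-02-23 lists held a mean of 59.1% of all 10 nM-only and 73.5% of all merged regions as deposited. The share for the 34 regions of this class is not given here, so the 4 do not stand for it.

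Regions present in vehicle and at 100 nM and missing at 10 nM were the fewest, 6 under both treatments of the lists. The strongest lay on chromosome 16 from 25060332 to 25060546, with folds of 5.68, 4.60 and 4.75 at 100 nM and 3.82, 4.39 and 4.33 in DMSO. Its p-values ranked at percentiles 54.8, 39.1 and 38.2 of the 100 nM lists, and the peaks were 207, 178 and 192 bp wide. The others lay on chromosome 12 from 700227 to 700530, on chromosome 11 from 119186474 to 119186761 and on chromosome 2 from 185169971 to 185170222. Their mean folds at 100 nM were 7.22 ± 1.29, 6.05 ± 0.70 and 6.26 ± 0.41 (SD, n = 3), and in DMSO 5.48 ± 0.38, 5.17 ± 0.74 and 7.26 ± 2.03 (SD, n = 3). Each of the 4 was held by 2 of 3 lists of WX-02-23. As a base, WX-02-23 lists held a mean of 58.8% of all 100 nM-only and 73.5% of all merged regions as deposited. Each engineered group allows 8 combinations of region and library. A peak was found in 3 of them in WT-FOXA1 DMSO, 3 in WT-FOXA1 PladB, 3 in C258A-FOXA1 DMSO and 2 in C258A-FOXA1 PladB. In the same order, these groups held means of 31.3%, 18.8%, 23.2% and 16.5% of all 100 nM-only regions. Over all merged regions the means were 58.2%, 54.5%, 56.1% and 51.4%. The 4 regions were picked by strength and do not stand for the 100 nM-only regions.

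Regions present at 100 nM and in neither DMSO nor 10 nM lists numbered 26 under both treatments of the lists. The strongest lay on chromosome 4 from 44555257 to 44555491, with folds of 6.92, 6.47 and 7.69 at 100 nM. All 3 WX-02-23 lists held it with folds of 6.87, 5.33 and 6.24, as did 1 WX-02-43 list and no engineered library. The second, on chromosome 5 from 41414797 to 41414978, had folds of 7.50, 6.99 and 6.02. It was held by 1 list of WX-02-23 and all 3 of WX-02-43. The third, on chromosome 15 from 97557240 to 97557556, had folds of 7.50, 5.24 and 7.22, and was held by 2 lists of WX-02-23 and 1 of WX-02-43. The fourth, on chromosome 17 from 38278070 to 38278297, had folds of 4.60, 5.85 and 4.97 and was held by 1 list of each. In the engineered cells the fourth had a peak in all 4 DMSO and 3 of 4 PladB libraries, and the third in none. At mean percentiles of 27.6 to 33.0, even the strongest of these 26 regions ranked low in the 100 nM lists. In the class as defined at equal length alone, the highest mean percentile was 38.3.

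WX-02-23, a covalent stereoprobe known to engage FOXA1 and also SF3B1, the target of PladB, and its stereoisomer WX-02-43 are not analogs of PladB. Their lists show whether the dose-only regions were open after another compound. WX-02-23 lists held 64.1%, 55.6% and 57.7% of the 10 nM-only regions, against 58.6%, 68.4% and 62.6% in DMSO. The groups overlapped, with a difference of -4.03 points (SE 3.82) and p = 0.4 in a two-sided exact permutation test. In 100 nM-only regions WX-02-23 lists held 61.8%, 57.4% and 57.4%, against 38.2%, 58.1% and 39.7% in DMSO, a difference of 13.5 points (SE 6.55) with a p of 0.3 in the same exact permutation test. This difference was 6.21 points with peaks of q-value 1e-05 or below and 1.97 points (p = 0.7, exact permutation) with each peak reduced to 100 bp on both sides of its summit (summit windows). Over all merged regions WX-02-23 lists held 73.5% ± 1.6, WX-02-43 lists 72.9% ± 5.4 and DMSO lists 73.7% ± 2.3 (SD, n = 3 each), and at equal length 71.0% ± 0.7, 72.0% ± 1.0 and 71.8% ± 0.4. Cut to equal length, the WX-02-23 lists held 49.1%, 48.5% and 48.8% of the 100 nM-only regions, all above the DMSO lists at 39.2%, 39.8% and 41.0%. The difference was then 8.78 points (SE 0.56, exact permutation p = 0.1, again the lowest possible, 0.25 adjusted over 5 tests). For 10 nM-only regions it was -7.65 points (SE 3.48, p = 0.2 in the exact permutation test, adjusted 0.278). WX-02-43 lists at equal length held 43.7%, 44.6% and 42.8% of the 100 nM-only regions, also all above the DMSO lists. The separation from DMSO was thus not particular to WX-02-23. Of the 10 nM-only regions the WX-02-43 lists held 57.1%, 56.7% and 53.5%. Replicate 3 of WX-02-43 stands apart, with the highest background of these libraries (1.502 reads per base) and a short list of 83748 peaks.

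PladB at 100 nM was also given to the engineered lines, whose lists took no part in choosing the regions. Both lines express Y36C-PHF5A, a change known to weaken such ligands, and induced FOXA1. The same dose therefore need not act in them as in parental cells. All parental lists come from 1 processing folder and all engineered lists from another by their peak names, so levels are compared within a line. In the WT-FOXA1 line the share of 10 nM-only regions with a peak was 32.6% and 33.6% in the DMSO libraries and 21.7% and 34.4% in the PladB libraries, means of 33.1% ± 0.8 and 28.1% ± 9.0 (SD, n = 2 each). In the C258A-FOXA1 line it was 29.6% and 31.0% after DMSO and 21.1% and 25% after PladB, means of 30.3% ± 1.0 and 23.1% ± 2.7 (SD, n = 2 each). The treatments overlapped in the WT-FOXA1 line and did not in the C258A-FOXA1 line. Over both lines the change was -6.15 points (p = 0.167, 0.25 adjusted over 6 tests, two-sided exact permutation within lines), where 36 arrangements allow no p below 0.0556. After subtracting the share of all merged regions it was -1.96 points. At equal length of 71121 peaks the direction turned, to 1.07 points (p = 0.222, exact permutation test). PladB lists of these lines were on average the shorter ones, and the background was 0.567 ± 0.029 reads per base after PladB and 0.808 ± 0.082 after DMSO in the C258A-FOXA1 line, against 0.864 ± 0.106 and 0.857 ± 0.018 in the WT-FOXA1 line (SD, n = 2 each). Over all merged regions their share was 54.5% ± 7.0 against 58.2% ± 1.8 in the WT-FOXA1 line and 51.4% ± 1.2 against 56.1% ± 1.3 in the C258A-FOXA1 line (SD, n = 2 each).

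The 100 nM-only regions, defined in parental cells, were not held more often after PladB in the engineered cells with Y36C-PHF5A. Their share was 31.3% ± 4.7 after DMSO and 18.8% ± 7.8 after PladB in the WT-FOXA1 line, and 23.2% ± 6.8 and 16.5% ± 4.7 in the C258A-FOXA1 line (SD, n = 2 each). The lowest DMSO library lay at 27.9% and the highest PladB library at 24.3% in the WT-FOXA1 line, while in the C258A-FOXA1 line they overlapped, at 18.4% and 19.9%. The change over both lines was -9.56 points (p = 0.111 in the same exact permutation test, 0.222 adjusted over 6 tests). It was -3.38 points with a fold of at least 6, -4.44 points with summit windows and -5.37 points after subtracting the share of all regions. At equal length it was 0.0749 points, with a p of 1 in the exact permutation test. By line, the equal-length changes were -1.20 points (SE 0.60) in the WT-FOXA1 line and 1.35 points (SE 1.21) in the C258A-FOXA1 line for these regions. For 10 nM-only regions they were -0.0933 points (SE 0.63) and 2.24 points (SE 0.71). Whether the lines differed was not tested.

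**Figure D5:**
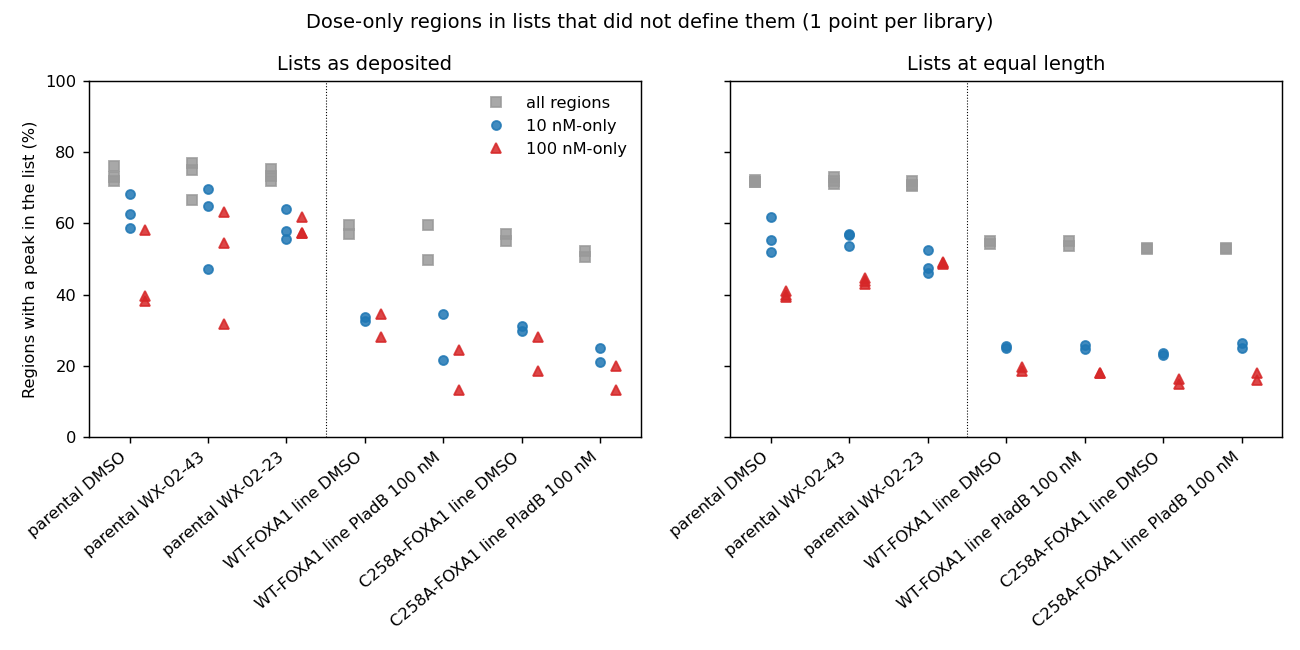
Percentage of 10 nM-only (circles), 100 nM-only (triangles) and all merged regions (squares) with a peak in each library that did not define them, 1 point per library, with parental groups left and engineered groups right of the dotted line. At equal length the 100 nM-only regions have a peak in 48.5% to 49.1% of cases in the WX-02-23 lists, in 42.8% to 44.6% in the WX-02-43 lists and in 39.2% to 41.0% in the DMSO lists.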

How the data were processed

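ATAC-seq libraries were aligned with Bowtie2 and peaks called with MACS2 on build hg19, per the submitters' processing notes. For versions, options and read shifting, nothing is given in the sources used here. The authors deposited a separate list for each library. Each deposited peak has a score, a fold (the ratio of pileup to local background), −log10 values of its p-value and its q-value, and a summit. The lowest −log10 q lay between 2 and 2.154 in the deposited lists used. These values were used to rank, filter or describe peaks within a list, and presence of a peak was compared between lists. A region without a peak can be open below the detection limit.

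Sequences other than chromosomes 1 to 22, X and Y were left out. Overlapping or touching peaks of the 6 PladB lists were merged, and a list held a region when a peak overlapped it by at least 1 bp. Equal length kept the 82538 peaks of lowest p-value in each parental list looked up and 71121 in each engineered list, on the same regions. Background levels used folds on a step of 1 read (tolerance 0.0001) with the matching Poisson p (tolerance 0.01 in −log10 p), 16.4% to 23.8% of the peaks of a list. Depth in reads is unknown, and so are counting intervals. Tests were exact permutation tests over libraries with Benjamini-Hochberg adjustment, 6 as deposited and 5 at equal length. No test was run on the counts of regions or over regions, which are not replicates. The named regions follow the rule given with them. Members, rules and alternatives were chosen with earlier results of these data known, and the shares set against all regions and the leaving out of engineered and WX-02-23 libraries were added after seeing the data. The alternatives are listed in the closing section. Counting, merging and permutation tests were tested on simulated data and checked against bedtools 2.31.1. Analyses ran in Python 3.11.15 with scipy 1.17.1, pandas 2.3.3, numpy 2.4.6 and matplotlib 3.10.9. Gene names, motifs and sequences were not analysed here, because no genome of build hg19 was used.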

Additional observations from a re-analysis of the deposited data

How the results depend on the processing

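Over 14 results 230 alternative values were computed. No test here can reach the usual level of significance, so differences were judged by direction alone: without counting single libraries left out, 40 kept it and 4 reversed. With lists of equal length there were 536 regions of 10 nM-only type (142 held by all and 84 by no DMSO list) and 334 of 100 nM-only type (44 and 110), and 56.3% of the 10 nM-only regions had a DMSO peak. The engineered changes turned to 1.07 and 0.0749 points, or to 1.22 and 0.224 points after subtracting the share of all regions. Equal length removes weak peaks from the longer lists, so a surplus there shrinks by construction. With a fold of at least 6, 499 regions were 10 nM-only (151 and 75), and 73 100 nM-only regions had no DMSO peak. Summit windows (100 bp to each side of a summit) gave 372 regions of 100 nM-only type (53 and 97). Allowing 1 list to lack a peak gave 5209 (1089 and 1252) and 1149 (122 and 419), with 48.1% of the former held in DMSO. Summit windows also left 1.97 of the 13.5 points by which WX-02-23 lists held more 100 nM-only regions than DMSO lists. The cause of the moves with the fold minimum and summit windows was not tested. A q-value of 1e-05 or below, 50% of a region covered and regions from all 15 parental lists moved no count by over 1.5 times and reversed nothing, and all sequences added no peak.

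Leaving out 1 library at a time gave -9906 to -5273 for the difference in peak number, 0.0059 to 0.0193 for the Jaccard difference, and 1956 to 3036 regions of 10 nM-only and 277 to 575 of 100 nM-only type. The DMSO classes ran from 507 to 1065 and 197 to 639 (10 nM-only, held by all and by none) and from 31 to 163 and 40 to 215 (100 nM-only). The DMSO shares ran from 51.6% to 69.5% and 35.2% to 60.8%, and their order turned without any 1 list of 10 nM. The engineered changes ran from -9.31 to -2.98 and -12.3 to -5.30 points, and those with WX-02-23 from -6.50 to -1.43 and 6.07 to 19.9 points. With the replicate number as a block, the difference of -8028 peaks had an exact p of 0.25 by sign permutation, the smallest that 3 pairs allow. The lowest possible p was 0.25 with the block and 0.1 without it (exact permutation tests), so the block could change no call. Deviations of same-numbered libraries correlated at 0.0132, 0.0052 and 0.0080, and those of differently numbered ones at -0.0224 to 0.0138. These correlations do not settle whether the numbers pair the libraries. Among peaks on the step of 1 read, the lowest summits held 5 or 6 reads in the DMSO and PladB libraries. In the WX-02-23 and WX-02-43 libraries they held 6 to 8. The other peaks were not read in this way, so these values are not a detection limit for all sites.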
